A study of Mus musculus with 6 samples.

Results

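Integrins, laminins, nidogens and the proteoglycan receptors of the basement membrane were followed in cultured mouse cancer-associated fibroblasts. The members were chosen by gene symbol: every integrin alpha and beta chain, every laminin alpha, beta and gamma chain, the nidogens Nid1 and Nid2, perlecan (Hspg2), agrin (Agrn), dystroglycan (Dag1) and the syndecans Sdc1 to Sdc4. This gave 46 genes of the 48368 symbols in the deposited tables, namely 18 integrin alpha chains, 8 integrin beta chains, 11 laminin chains and 9 others. Of these, 42 passed the filter on low counts and were tested among 17584 genes, while Itgad, Itgae, Itgal and Itgax did not pass it. The fibroblasts were grown from mammary tumours of MMTV-PyMT mice, in which the mouse mammary tumour virus promoter drives the polyoma middle T oncogene in mammary epithelium, so every library shares that transgene. The compared genotypes were Hic-5-/- (KO) and Hic-5+/- (HET), with 3 libraries each, and all 6 libraries carry at least a single targeted Hic-5 allele. The series text calls the libraries technical triplicates, while their titles carry 5 different numbers over the 6 libraries, and the sources used here do not say whether these numbers stand for animals or cultures. Any p-value given here rests on the variation among those 6 libraries, which may be technical.

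Integrins are receptors made of an alpha and a beta chain, and the alpha chain largely sets which matrix protein is bound. Laminins are trimers of an alpha, a beta and a gamma chain that polymerise into the sheet of a basement membrane. Nidogens link that sheet to collagen IV and perlecan, while agrin, dystroglycan and the syndecans tie it to the cell surface. Hic-5, encoded by Tgfb1i1, is an adaptor of the paxillin family at the focal adhesions where integrins meet the actin cytoskeleton.

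The targeted gene did not follow the labels in every library. Tgfb1i1 had 90.4, 0.232 and 156 CPM (the count relative to library size, here scaled by TMM factors) in KO 1, KO 2 and KO 3, against 223, 348 and 125 CPM in HET 1, HET 2 and HET 3. KO 3 lay above HET 3, the adjusted p was 0.756 in edgeR, and KO 2 alone was near zero, so KO and HET name libraries by their labels throughout, and every direction given here is a direction between labels. KO 3 and HET 3 share a number in their titles. A library held 24954273 to 42470598 estimated counts, and 3 counts corresponded to 0.0682 to 0.119 CPM. These floors cover counting error only. The libraries also differed in cell type markers. The 10 fibroblast markers summed to 5273, 269 and 2207 CPM in KO 1 to KO 3, against 13602, 6051 and 6509 CPM in HET 1 to HET 3. Of the HET 1 sum, 4948 CPM came from Col1a1 and 5109 CPM from Col1a2. By single marker, KO 2 was lowest for 8 of the 10, while the highest was KO 1 for 2, HET 1 for 3, HET 2 for 1 and HET 3 for 4. Dcn, for instance, had 370, 0.775 and 136 CPM in KO 1 to KO 3, against 55.0, 59.7 and 356 CPM in HET 1 to HET 3. Of the 12 epithelial markers, 9 were highest in KO 2, among them Krt18 at 37.9 CPM and Cdh1 at 14.6 CPM, while the other libraries held at most 2.93 CPM of Krt18 and 1.47 CPM of Cdh1. Krt19 went the other way, with 27.2, 0.542 and 17.8 CPM in KO 1 to KO 3, against 64.1, 12.97 and 16.2 CPM in HET 1 to HET 3, and was lowest in KO 2. The leukocyte marker Ptprc had 5.67 CPM in KO 3 and 8.19 CPM in HET 2, and at most 0.0455 CPM elsewhere. A lower level of a transcript in such bulk samples can reflect fewer cells of a type or less RNA per cell, and these cannot be told apart.

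Integrin beta 1, which pairs with most alpha chains, and nidogen 1 were the most abundant members. Itgb1 (chr8:128685654-128733200, GRCm38) had 436, 396 and 747 CPM per kilobase of exon in KO 1 to KO 3, against 394, 632 and 306 CPM per kilobase in HET 1 to HET 3. It ranked 1 of 46 on this per-length scale in 5 libraries and 2 in HET 3. Nid1 (chr13:13437551-13512269) had 107, 2.28 and 307 CPM per kilobase in KO 1 to KO 3, against 169.9, 186 and 547 CPM per kilobase in HET 1 to HET 3. It ranked between 1 and 3 in 5 libraries and 21 in KO 2, where it stood far below its level elsewhere. The next levels, averaged over the 6 libraries, were 80.9 CPM per kilobase for Itgb5, 80.6 for Sdc4 and 64.8 for Itga5, and these neighbours overlapped one another widely between libraries. At the other end, Itgad averaged 0.00857 CPM per kilobase and Lama3 0.0348 CPM per kilobase.

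**Figure D1:**
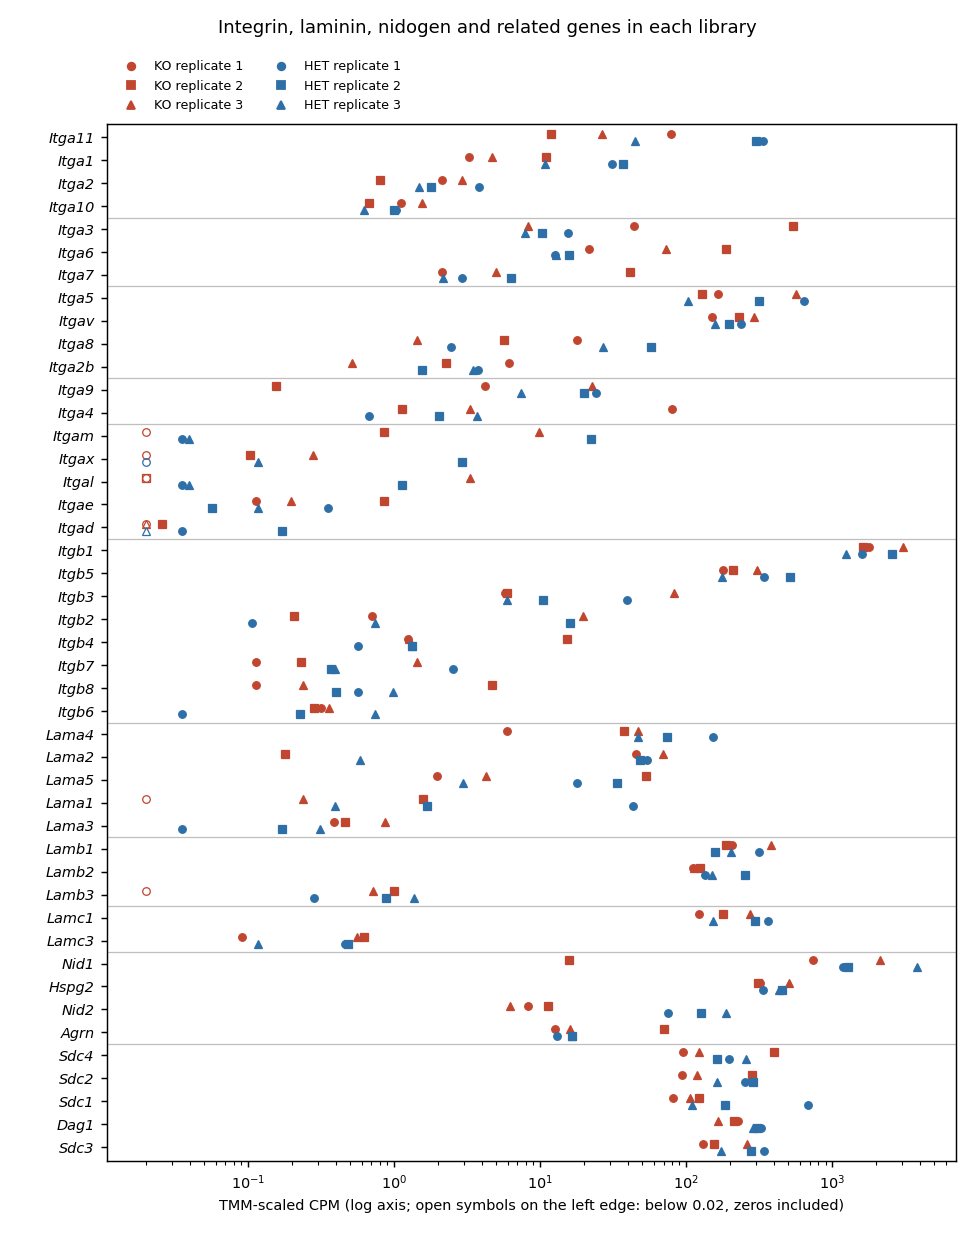
Level of the members in each library as TMM-scaled CPM on a log axis, with KO libraries in red drawn above HET libraries in blue in each row and grey lines between classes. Nid2 is low in all 3 KO libraries (6.19 to 11.4 CPM) and high in all 3 HET libraries (74.9 to 188 CPM), whereas most rows mix the labels.

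The members varied more between libraries than the transcriptome at large. The ratio of the highest to the lowest library had a median of 14.6 over the 42 tested members, against 2.38 over the tested genes above 0 in every library. The member median ranked Itgam, Lama1 and Lamb3, at 0 CPM in KO 1, as the highest ratios. The all-gene median left such genes out, so the medians treat zeros differently. The ratio was over 10 in 24 of the 42, these members included. Such a ratio does not use the genotype labels, and no single library led: KO 2 held the highest level of 9 members and KO 3 of 10, against 11 in HET 1, while KO 1 held the lowest of 20. A few members were steady, with a ratio of 1.62 for Hspg2, 1.95 for Itgav and 1.98 for Dag1.

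Between the labels, no member passed the edgeR quasi-likelihood test with Benjamini-Hochberg adjustment over all genes. Adjusted p ran from 0.579 to 0.998 over the 42 tested members, and 0% of all tested genes were called. At an unadjusted p under 0.05 there were 6 members (14.3%), against 8.59% of all tested genes. Itga3 and Itga6 were higher in KO (4.76% of members, against 4.3% of all genes), while Nid2, Itga1, Dag1 and Itga11 were lower (9.52%, against 4.29%). The labels did not overlap in 6 members (14.3%), close to the 15.5% of all tested genes. KO was the higher label in Itga6 and Lama3 (4.76%, against 8.1% of all genes) and the lower in Nid2, Dag1, Lama4 and Lamb2 (9.52%, against 7.42%). DESeq2 called Itga3, Itga6 and Nid2, which is 8.33% of the 36 members to which it gave a p, against 1.33% of all genes (0.391% higher and 0.942% lower in KO). With limma-voom 0 members passed after adjustment and 5 had an unadjusted p under 0.05 (11.9%), against 8.75% of all genes. The median log2 fold change, KO over HET, was -0.08 over the tested members and 0.01 over all tested genes, and 20 members (47.6%, against 50.9% of all genes) were higher and 22 lower.

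**Figure D2:**
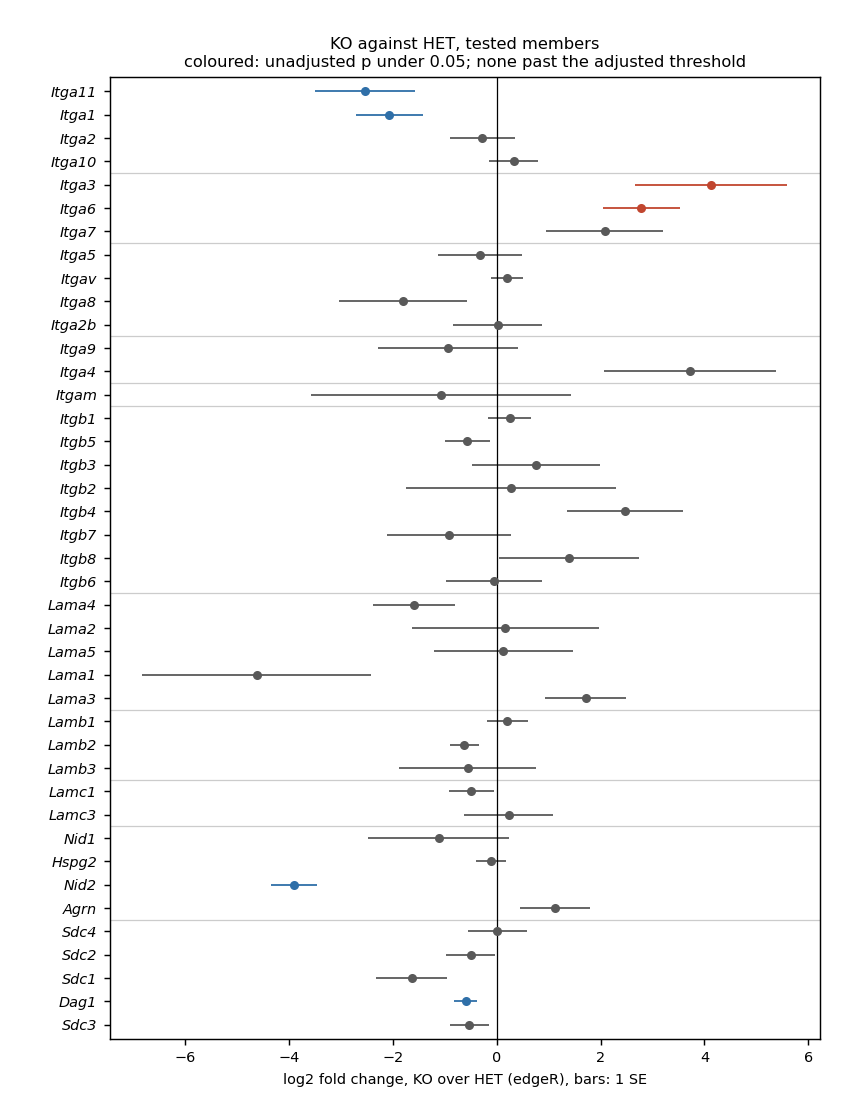
Log2 fold change of KO over HET for tested members, with bars of 1 SE from edgeR and grey lines between classes. Red marks Itga3 and Itga6 and blue marks Itga11, Itga1, Nid2 and Dag1, the members at an unadjusted p under 0.05, and no member passed after adjustment.

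Nidogen 2 stood furthest apart between the labels. Nid2 (chr14:19751265-19811787) had 8.30, 11.4 and 6.19 CPM in KO 1 to KO 3, against 74.9, 126 and 188 CPM in HET 1 to HET 3. The highest KO library lay 6.57-fold below the lowest HET library, the widest such gap among the members. Nid2 averaged 8.63 ± 2.62 CPM in KO and 129.9 ± 56.8 CPM in HET (SD, n = 3 each). On the log2 scale KO over HET came to -3.91 ± 0.44 (SE), with the smallest unadjusted p of the 17584 tested genes, 8.07e-05, and an adjusted p of 0.579 in edgeR. DESeq2 gave Nid2 an adjusted p of 1.21e-13. Leaving out any single library kept the log2 fold change between -4.18 and -3.54. Nid2 was low both in KO 3, where Tgfb1i1 exceeded its level in HET 3, and in KO 2, where Tgfb1i1 was near zero. Some 8.45% of Nid2 exon bases overlap Rtraf on the opposite strand, and the sources used here do not say whether counting used the strand.

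Nidogen 1, its close relative, gave another pattern. Nid1 had 741, 15.9 and 2129 CPM in KO 1 to KO 3, against 1179.7, 1291 and 3801 CPM in HET 1 to HET 3. KO 3 lay above both HET 1 and HET 2, so the labels overlapped, and the log2 fold change was -1.12 ± 1.36 with an adjusted p of 0.798 in edgeR. Per kilobase of exon, the ratio of Nid1 to Nid2 was 66.5, 1.04 and 256 in KO 1 to KO 3, against 11.7, 7.61 and 15.04 in HET 1 to HET 3. The HET libraries thus kept the ratio within a narrow range, while KO libraries lay on either side of it.

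Perlecan and agrin, heparan sulfate proteoglycans of the basement membrane, overlapped between the labels. Perlecan (Hspg2) had 322, 309 and 503 CPM in KO 1 to KO 3, against 336, 456 and 432 CPM in HET 1 to HET 3, with a log2 fold change of -0.11 ± 0.29. Agrin, which clusters dystroglycan and other receptors, had 12.7, 71.1 and 16.1 CPM in KO 1 to KO 3, against 12.96, 16.6 and 16.4 CPM in HET 1 to HET 3. Only KO 2 stood out for Agrn, and its log2 fold change of 1.12 ± 0.68 became -0.09 when KO 2 was left out.

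**Figure D3:**
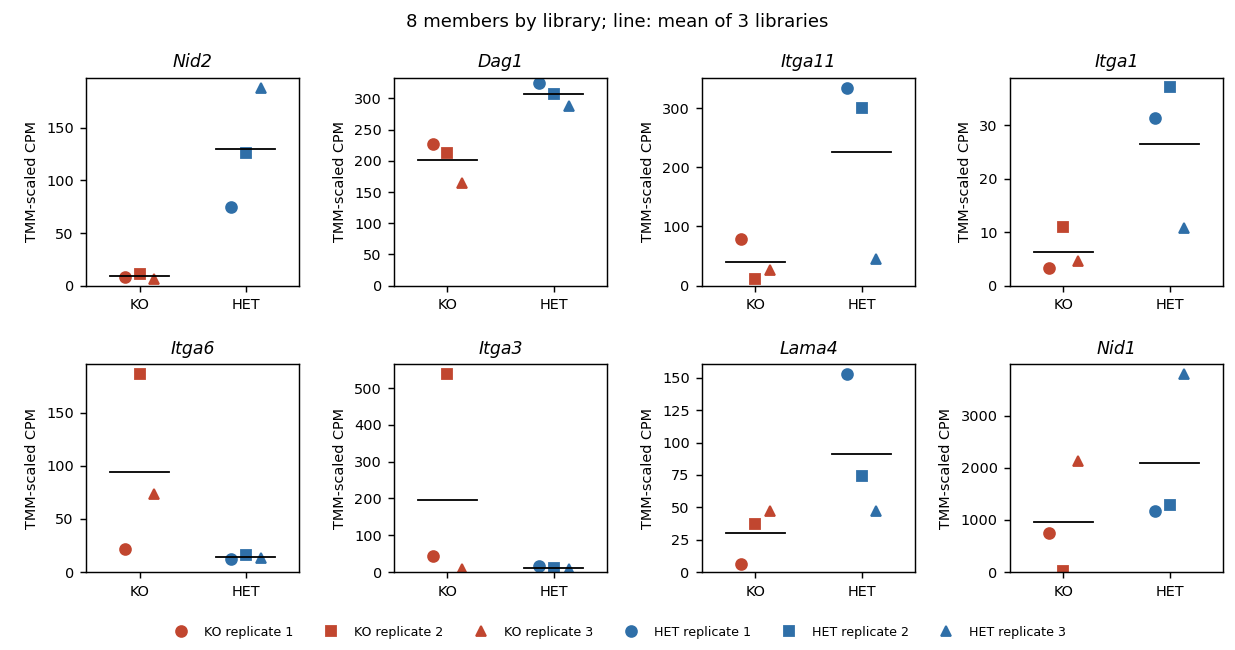
TMM-scaled CPM of 8 members in each library, with KO left of HET, axes starting at 0 and a line at the mean of the 3 libraries. The labels separate for Nid2, Dag1 and Itga6, the KO mean of Itga3 rests on KO 2 at 538 CPM, and KO 3 (46.8 CPM) and HET 3 (46.9 CPM) nearly meet for Lama4.

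Among the laminin-binding integrin alpha chains, all 3 had a positive log2 fold change over the 6 libraries, but that of Itga7 turned negative without KO 2. Integrin alpha 6 (Itga6, chr2:71745616-71858416) had 21.5, 187 and 73.1 CPM in KO 1 to KO 3, against 12.6, 15.7 and 12.8 CPM in HET 1 to HET 3. Every KO library lay above every HET library, with a log2 fold change of 2.78 ± 0.74, an unadjusted p of 0.00862 and an adjusted p of 0.579 in edgeR, and of 0.0173 in DESeq2. Integrin alpha 3 (Itga3, chr11:95044474-95076801) had 44.2, 538 and 8.25 CPM in KO 1 to KO 3, against 15.6, 10.3 and 7.92 CPM in HET 1 to HET 3. KO 2 alone carried most of that difference, since KO 3 matched HET 3. The log2 fold change of Itga3 was 4.13 ± 1.47 (adjusted p of 0.579 in edgeR and 0.0324 in DESeq2), and 1.23 ± 0.72 without KO 2. Without the same library, that of Itga6 was 1.78 ± 0.51, at an unadjusted p of 0.0155 and an adjusted p of 0.950 in edgeR. Integrin alpha 7 (Itga7), the laminin receptor of muscle, had 2.12, 41.0 and 4.96 CPM in KO 1 to KO 3, against 2.94, 6.29 and 2.16 CPM in HET 1 to HET 3. Its log2 fold change was 2.07 ± 1.13 (adjusted p of 0.603 in edgeR), and -0.12 ± 0.66 without KO 2. KO 2, the highest library for all 3, was also highest for 9 of the 12 epithelial markers, lowest for Krt19 and lowest for the fibroblast marker sum, and the part of these in the result was not tested.

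The collagen-binding alpha chains had lower KO means for the more abundant members. Integrin alpha 11 (Itga11, chr9:62677826-62783982), a collagen receptor of fibroblasts, had 78.6, 11.9 and 26.7 CPM in KO 1 to KO 3, against 335, 300.01 and 44.3 CPM in HET 1 to HET 3. HET 3 lay among the KO libraries, and the log2 fold change was -2.53 ± 0.96, with an unadjusted p of 0.0366 and an adjusted p of 0.579 in edgeR. Integrin alpha 1 (Itga1, chr13:114953096-115101964), another collagen receptor, had 3.25, 10.9 and 4.68 CPM in KO 1 to KO 3, against 31.3, 37.2 and 10.9 CPM in HET 1 to HET 3. KO 2 and HET 3 met at the same value, and the log2 fold change was -2.07 ± 0.64, with an unadjusted p of 0.0163 and an adjusted p of 0.579. Itga2 stayed between 0.801 and 3.83 CPM in all libraries. Itga10 stayed between 0.628 and 1.55 CPM, and is uncertain because 33.5% of its exon bases are shared with Gm42957 on the same strand.

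The chains that recognise the RGD motif of fibronectin and vitronectin did not separate the labels. Integrin alpha 5 (Itga5), the main fibronectin receptor chain, had 165, 128 and 561 CPM in KO 1 to KO 3, against 645, 316 and 103 CPM in HET 1 to HET 3. Its highest and lowest libraries were both labelled HET. Integrin alpha v (Itgav), which serves several RGD receptors, had 150.1, 232 and 293 CPM in KO 1 to KO 3, against 237, 195 and 158 CPM in HET 1 to HET 3, a log2 fold change of 0.19 ± 0.31. Integrin alpha 8 (Itga8), whose ligand is nephronectin, had 17.8, 5.63 and 1.43 CPM in KO 1 to KO 3, against 2.44, 57.4 and 27.1 CPM in HET 1 to HET 3. The platelet chain Itga2b stayed between 0.515 and 6.10 CPM, with a log2 fold change of 0.02 ± 0.86.

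Integrin alpha 4 (Itga4), which binds fibronectin and VCAM-1, was abundant in a single library. It had 80.4, 1.14 and 3.33 CPM in KO 1 to KO 3, against 0.673, 2.05 and 3.73 CPM in HET 1 to HET 3. Its relative Itga9 had 4.21, 0.155 and 22.6 CPM in KO 1 to KO 3, against 24.1, 20.1 and 7.45 CPM in HET 1 to HET 3. KO 1 thus held most Itga4, while Itga9 was lowest in KO 2, and neither separated the labels.

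Summed by ligand and per kilobase of exon, the alpha chains divided differently among libraries. Laminin-binding chains made 12.4%, 69.6% and 6.22% of the alpha chain sum in KO 1 to KO 3, against 1.95%, 2.64% and 5.71% in HET 1 to HET 3. Collagen-binding chains made 19.1%, 1.82% and 3.78% in KO 1 to KO 3, against 29.5%, 37.2% and 17.8% in HET 1 to HET 3. RGD-binding chains made 60.9%, 28.3% and 86.5% in KO 1 to KO 3, against 67.1%, 55.2% and 74.1% in HET 1 to HET 3. Only the laminin-binding share lay wholly higher in KO, narrowly so between KO 3 and HET 3, and on the deposited RPKM scale it overlapped, with 3.63% in KO 3 and 5.65% in HET 3. RGD-binding chains led in every library except KO 2.

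**Figure D4:**
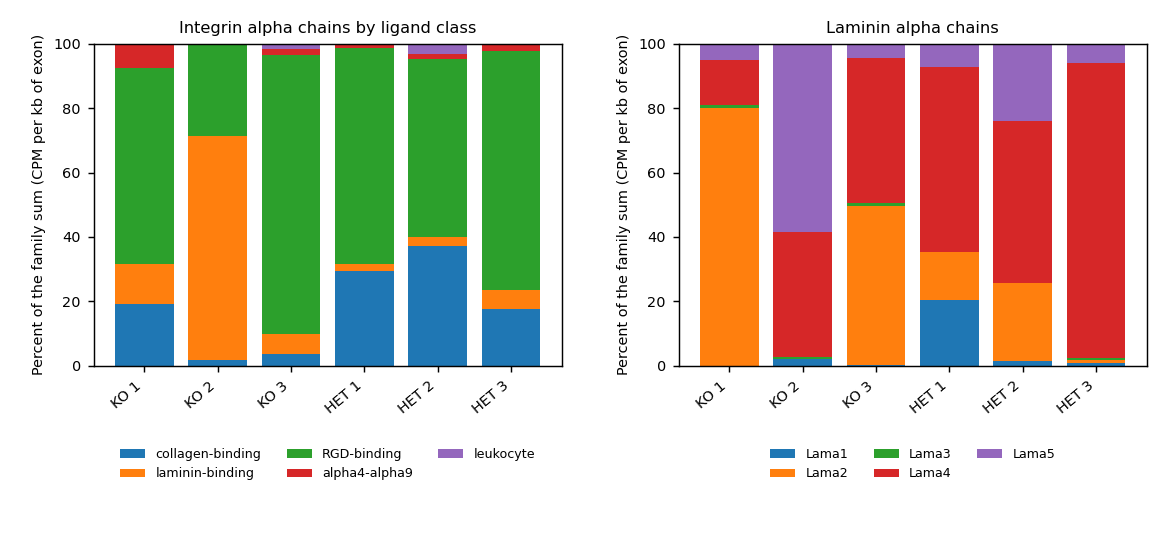
Share of integrin alpha chain transcript by ligand class (left) and of laminin alpha chain transcript by chain (right) in each library, in percent of the summed CPM per kilobase of exon, with KO libraries left of HET libraries. Laminin-binding integrin chains take 69.6% in KO 2, and Lama2 takes 79.9% in KO 1 but 0.138% in KO 2.

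Integrin beta chains were led by Itgb1 in all 6 libraries. On the CPM scale it had 1779, 1616 and 3050.3 in KO 1 to KO 3, against 1609.5, 2579 and 1247 in HET 1 to HET 3, and a log2 fold change of 0.25 ± 0.42. Itgb5, which pairs with alpha v to bind vitronectin, had 178, 210.7 and 306 CPM in KO 1 to KO 3, against 343, 510.4 and 176 CPM in HET 1 to HET 3. Both chains overlapped between the labels. Of the beta chain sum per kilobase of exon, Itgb1 made 89.4%, 86.3% and 87.5% in KO 1 to KO 3, against 79.1%, 80.7% and 85.6% in HET 1 to HET 3. Itgb5 made 10.3%, 12.9% and 10.1% in KO 1 to KO 3, against 19.4%, 18.3% and 13.9% in HET 1 to HET 3. On this scale the labels did not overlap in either share, but on the deposited RPKM scale Itgb1 overlapped, with 93.4% in KO 3 and 94.0% in HET 3. Itgb3, the other vitronectin receptor chain, had 5.76, 5.91 and 82.5 CPM in KO 1 to KO 3, against 39.2, 10.4 and 5.92 CPM in HET 1 to HET 3, and its high libraries carried different labels.

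The beta chains of epithelia were low outside KO 2. Itgb4, the hemidesmosome partner of alpha 6, had 1.25, 15.4 and 1.27 CPM in KO 1 to KO 3, against 0.567, 1.34 and 1.33 CPM in HET 1 to HET 3. Itgb8, which activates latent TGF-beta with alpha v, had 0.114, 4.70 and 0.238 CPM in KO 1 to KO 3, against 0.567, 0.398 and 0.981 CPM in HET 1 to HET 3. Itgb6, also epithelial, was low in KO 2 as well. It had 0.318, 0.284 and 0.357 CPM in KO 1 to KO 3, against 0.0354, 0.228 and 0.745 CPM in HET 1 to HET 3. The 12 epithelial markers summed to 28.5, 90.3 and 29.1 CPM in KO 1 to KO 3, against 65.8, 18.0 and 19.1 CPM in HET 1 to HET 3, with 64.1 CPM of the HET 1 sum from Krt19. Of the 12, 11 exceeded 3 counts in KO 2, 12 in KO 3 and 7 to 10 in the other libraries, and their part in these levels was not tested.

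The leukocyte integrins appeared in a library of each label. Itgb2, the beta chain of leukocyte integrins, had 0.705, 0.207 and 19.7 CPM in KO 1 to KO 3, against 0.106, 16.1 and 0.745 CPM in HET 1 to HET 3. Itgam, its partner in macrophages and neutrophils, had 0, 0.852 and 9.87 CPM in KO 1 to KO 3, against 0.0354, 22.3 and 0.0392 CPM in HET 1 to HET 3. KO 3 and HET 2 were also the libraries with Ptprc, and the 12 leukocyte markers summed to 16.5, 6.82 and 119 CPM in KO 1 to KO 3, against 36.3, 229 and 27.3 CPM in HET 1 to HET 3. Cd3e and Cd79a, which mark T and B cells, were at or under 0.119 CPM in every library. The part of leukocyte transcript in these levels was not tested. Itgam is uncertain, since 68.7% of its exon bases are shared with Gm49368 on the same strand. Of the untested chains, Itgal reached 3.29 CPM in KO 3 and 1.14 CPM in HET 2, Itgax reached 2.90 CPM in HET 2, Itgae reached 0.852 CPM in KO 2, and Itgad stayed at or under 0.171 CPM. Itgad, Itgax and Itgam lie 23.0, 96.2 and 128 kb from Tgfb1i1 on chromosome 7. Itgb7, the beta chain that pairs with Itgae, reached 1.43 CPM in KO 3 and 2.55 CPM in HET 1.

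Laminin alpha chains had a different order from library to library. Lama4 (chr10:38965515-39110188), the alpha chain of vessel and mesenchymal basement membranes, had 5.96, 37.5 and 46.8 CPM in KO 1 to KO 3, against 153, 74.3 and 46.9 CPM in HET 1 to HET 3. All KO values were lower, but KO 3 and HET 3 nearly met, and the log2 fold change of -1.60 ± 0.79 had an adjusted p of 0.592 in edgeR. With scaling by library size alone, the labels overlapped for Lama4. Lama2 (chr10:26980036-27619758), the chain of muscle and nerve laminin, had 45.6, 0.181 and 69.7 CPM in KO 1 to KO 3, against 53.6, 48.7 and 0.588 CPM in HET 1 to HET 3. A library of each label was nearly without it. Lama5, widespread in epithelial basement membranes, had 1.96, 53.3 and 4.24 CPM in KO 1 to KO 3, against 17.9, 33.7 and 2.98 CPM in HET 1 to HET 3. Lama1, the main alpha chain of the early embryo, had 0, 1.58 and 0.238 CPM in KO 1 to KO 3, against 43.3, 1.68 and 0.392 CPM in HET 1 to HET 3, so HET 1 was the only library where it was abundant. Lama3, an alpha chain of epithelia, did not overlap but was low, with 0.387, 0.465 and 0.872 CPM in KO 1 to KO 3, against 0.0354, 0.171 and 0.314 CPM in HET 1 to HET 3. Of the summed laminin alpha chain transcript per kilobase, Lama4 made 14.1%, 38.8% and 45.001% in KO 1 to KO 3, against 57.6%, 50.1% and 91.4% in HET 1 to HET 3. Every KO share was lower, and Lama4 led in all 3 HET libraries but in no KO library. On the deposited RPKM scale the Lama4 share overlapped, with 61.8% in KO 3 and 39.99% in HET 2.

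The beta and gamma chains of laminin were more even. Lamb1, the common beta chain, had 206, 187 and 380.1 CPM in KO 1 to KO 3, against 316, 157 and 202 CPM in HET 1 to HET 3. Lamb2, the beta chain of synaptic and vessel laminins, had 110.97, 124 and 114 CPM in KO 1 to KO 3, against 136, 252 and 150.2 CPM in HET 1 to HET 3. All KO values of Lamb2 were lower, with a log2 fold change of -0.63 ± 0.28, an unadjusted p of 0.0670 and an adjusted p of 0.589 in edgeR, and the labels overlapped with scaling by library size alone. Lamc1, the gamma chain of most laminins, had 123, 180.1 and 274 CPM in KO 1 to KO 3, against 362, 298 and 152 CPM in HET 1 to HET 3. KO 3 lay above HET 3 for both Lamb1 and Lamc1, and the labels overlapped in each. Lamb3, a beta chain of epithelia, was at most 1.01 CPM in KO and 1.37 CPM in HET, and Lamc3 at most 0.620 CPM in KO and 0.483 CPM in HET.

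Chain sums put the laminin alpha chains below their partners. Per kilobase of exon, the alpha chains summed to 3.49, 7.999 and 8.62 CPM in KO 1 to KO 3, against 22.01, 12.3 and 4.26 CPM in HET 1 to HET 3. The gamma chains summed to 15.9, 22.9 and 38.1 CPM per kilobase in KO 1 to KO 3, against 45.1, 40.3 and 19.9 in HET 1 to HET 3. The beta chains summed to 39.1, 39.4 and 57.1 CPM per kilobase in KO 1 to KO 3, against 54.2, 57.5 and 45.3 in HET 1 to HET 3. The order alpha, gamma, beta held in all 6 libraries. For laminin-111, laminin-211, laminin-221, laminin-411, laminin-421, laminin-511 and laminin-521 the alpha chain was the scarcest transcript in every library. The scarcest chain of laminin-411 had 0.494, 3.11 and 3.88 CPM per kilobase in KO 1 to KO 3, against 12.7, 6.16 and 3.89 in HET 1 to HET 3. That of laminin-511 had 0.172, 4.68 and 0.373 CPM per kilobase in KO 1 to KO 3, against 1.57, 2.96 and 0.262 in HET 1 to HET 3.

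**Figure D5:**
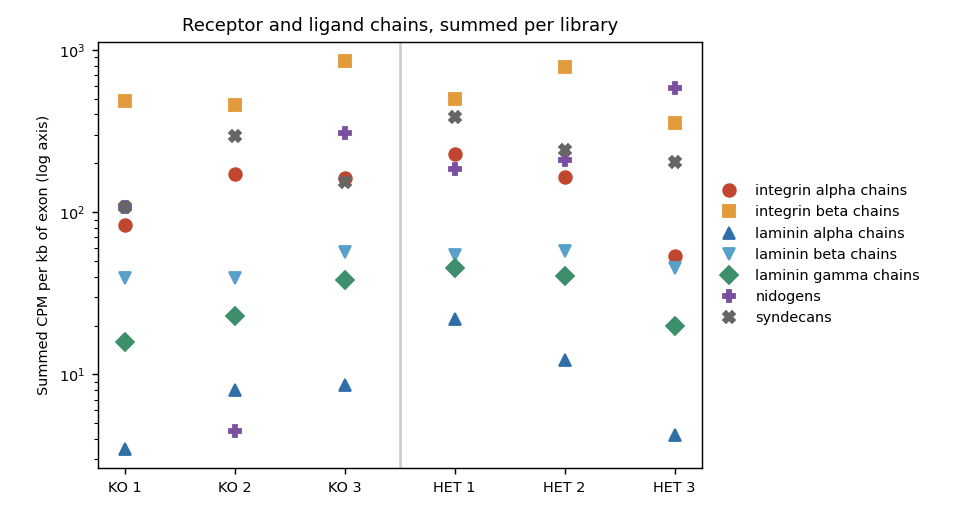
Summed CPM per kilobase of exon of each chain family in each library on a log axis, with KO libraries left of the grey line and HET libraries right of it. Integrin beta chains exceed alpha chains and laminin alpha chains lie below gamma and beta chains in all 6 libraries, and nidogens stand at 4.49 in KO 2.

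Receptor and ligand levels were set side by side in each library. Integrin beta chains summed to 488, 459 and 855 CPM per kilobase in KO 1 to KO 3, against 499, 783 and 357 in HET 1 to HET 3. Integrin alpha chains summed to 83.7, 172 and 163 CPM per kilobase in KO 1 to KO 3, against 229, 164 and 53.8 in HET 1 to HET 3. Itgb1 alone exceeded the sum of its alpha partners by 5.28, 2.31 and 4.65 times in KO 1 to KO 3, against 1.73, 3.999 and 5.76 times in HET 1 to HET 3, so that in every library Itgb1 was the more plentiful side of its dimers. Alpha 5 beta 1 had the highest scarcer-chain level of all listed dimers in 5 libraries, while alpha 3 beta 1 led in KO 2 at 94.2 CPM per kilobase. All receptors (integrins, dystroglycan and syndecans) over all ligands (laminins, nidogens, perlecan and agrin) gave 3.75, 9.24 and 2.67 in KO 1 to KO 3, against 3.52, 3.49 and 0.963 in HET 1 to HET 3. Without Nid1 and Itgb1 the ratio was 3.31, 5.55 and 3.17 in KO 1 to KO 3, against 4.78, 3.59 and 2.57 in HET 1 to HET 3, and the labels overlapped on either count.

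Dystroglycan and the syndecans connect laminins and other matrix proteins with the cell surface. Dag1 (chr9:108204634-108263958) had 228, 213 and 164 CPM in KO 1 to KO 3, against 325, 307 and 288 CPM in HET 1 to HET 3. All KO values were lower, and Dag1 averaged 202 ± 33.4 CPM in KO and 307 ± 18.6 CPM in HET (SD, n = 3 each). Its log2 fold change was -0.60 ± 0.22, with an unadjusted p of 0.0303 and an adjusted p of 0.579 in edgeR and 0.242 in DESeq2. Sdc1, best known from epithelia and plasma cells, had 81.9, 123 and 107 CPM in KO 1 to KO 3, against 679.5, 184 and 110.0 CPM in HET 1 to HET 3. Much of that difference lay in HET 1, since KO 3 and HET 3 were alike, and the log2 fold change of -1.64 ± 0.69 had an adjusted p of 0.582. Sdc4, the syndecan of focal adhesions, had 94.5, 402 and 122 CPM in KO 1 to KO 3, against 195, 163 and 255 CPM in HET 1 to HET 3. Sdc3 had 131, 156 and 262 CPM in KO 1 to KO 3, against 339, 278 and 174 CPM in HET 1 to HET 3. Sdc2 ranged from 93.8 to 281 CPM in KO and from 162 to 286 CPM in HET, and the labels overlapped in all 4 syndecans.

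Promoter sequence is shown for Nid1, Lama2 and Itga3, which swung widely between libraries of the same label and were chosen after their values were seen. RefSeq promoter windows (GRCm38.p6, 250 bases before to 50 after a gene's start) were on hand for 30 of the 46 members, not for Nid2 or Itga6. Capitals mark an Sp1 box (GGGCGG) or a TEAD site (GGAATG), searched on both strands along with the AP-1 site (TGANTCA) and the TATA box (TATAAA). The windows are Nid1 at chr13:13437352-13437651 on the plus strand, Lama2 at chr10:27616893-27617192 on the minus strand, and the first of 2 windows of Itga3 at chr11:95076665-95076964 on the minus strand. The Lama2 window lies inside the gene bounds given above, which on the minus strand begin at 27619758. The start it is set on is thus not the outermost annotated start.
Nid1: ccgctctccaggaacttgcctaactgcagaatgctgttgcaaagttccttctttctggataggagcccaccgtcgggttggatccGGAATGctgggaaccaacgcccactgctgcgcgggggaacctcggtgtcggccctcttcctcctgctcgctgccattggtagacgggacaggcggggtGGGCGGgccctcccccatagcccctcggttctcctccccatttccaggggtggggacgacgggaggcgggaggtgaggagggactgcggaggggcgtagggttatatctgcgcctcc
Itga3: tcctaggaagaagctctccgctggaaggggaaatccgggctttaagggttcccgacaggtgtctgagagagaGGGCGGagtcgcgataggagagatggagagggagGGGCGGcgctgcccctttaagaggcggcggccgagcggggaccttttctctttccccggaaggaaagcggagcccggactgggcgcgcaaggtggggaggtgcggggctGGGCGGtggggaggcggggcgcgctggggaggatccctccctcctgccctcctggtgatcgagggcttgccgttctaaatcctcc
Lama2: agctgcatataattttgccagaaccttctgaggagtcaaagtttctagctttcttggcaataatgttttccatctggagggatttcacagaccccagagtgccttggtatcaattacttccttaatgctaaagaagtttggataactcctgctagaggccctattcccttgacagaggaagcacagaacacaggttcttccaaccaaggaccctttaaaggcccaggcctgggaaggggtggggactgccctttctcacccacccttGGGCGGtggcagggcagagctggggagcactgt
The Nid1 window holds 1 Sp1 box and 1 TEAD site, that of Itga3 holds 3 Sp1 boxes, and that of Lama2 holds 1 Sp1 box and a single CpG. An Sp1 box was found in 18 of the 30 member windows (60.0%), against 35.9% of 27025 windows of all genes. A TEAD site was found in 3 of the 30, against 14.6% of all windows. The AP-1 site was found in 2, against 7.93% of all windows, and the TATA box in 0, against 14.2%. Member windows held from 44.0% (Lamb2) to 83.3% (Agrn) G and C, most of them above the median of 52.7% over all windows. The part of base composition in these motif shares was not tested. A match is a run of letters and does not show binding. The motifs do not overlap one another in the windows printed.

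Other genes of the same pathways were read from lists, and none passed the adjusted threshold in edgeR, where 0% of all tested genes did. At an unadjusted p under 0.05, 4.3% of all tested genes were higher in KO and 4.29% lower. Among 18 tested genes of the basement membrane beyond the members, 0 were higher and 2 lower (11.1%, against 4.29% of all genes), and the median log2 fold change was -0.26, against 0.01 over all genes. Col18a1, whose collagen XVIII carries endostatin, had 4.66, 5.71 and 3.45 CPM in KO 1 to KO 3, against 18.9, 14.8 and 18.9 CPM in HET 1 to HET 3. Col4a5, a collagen IV chain, had 59.2, 71.5 and 80.2 CPM in KO 1 to KO 3, against 151, 140.0 and 109.6 CPM in HET 1 to HET 3. The labels did not overlap in these 2 genes alone of the 18 (11.1%, against 7.42% of all genes wholly lower in KO). DESeq2 called both, at an adjusted p of 9.33e-06 for Col18a1 and 0.0430 for Col4a5, and called 0.942% of all genes lower. The third by p, Papln, stood at 22.1 CPM in KO 2 and at most 1.22 CPM elsewhere.

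Among 26 tested integrin activators and adaptors, 1 was higher (3.85%, against 4.3% of all genes) and 3 lower in KO (11.5%, against 4.29%) at an unadjusted p under 0.05, with a median log2 fold change of -0.25. Vinculin (Vcl), which ties talin to actin, had 489.9, 524 and 535 CPM in KO 1 to KO 3, against 912, 1028 and 688 CPM in HET 1 to HET 3. Tensin 2 (Tns2), a focal adhesion protein, had 39.3, 22.2 and 33.9 CPM in KO 1 to KO 3, against 113, 68.0 and 52.4 CPM in HET 1 to HET 3. All KO values lay below all HET values in both genes. Over the 26, the labels did not overlap in 1 gene higher in KO (3.85%, against 8.1% of all genes). They did not overlap in 3 lower in KO (11.5%, against 7.42%). Bcar1, the adhesion scaffold p130Cas, had the opposite order, with 182, 248 and 128 CPM in KO 1 to KO 3, against 117, 110.6 and 92.6 CPM in HET 1 to HET 3. Log2 fold changes were -0.76 ± 0.25 for Vcl, -1.29 ± 0.37 for Tns2 and 0.80 ± 0.29 for Bcar1, each with an adjusted p of 0.579.

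Among 22 tested genes of the dystroglycan complex and its glycosylation, 0 were higher (against 4.3% of all genes) and 4 lower in KO (18.2%, against 4.29%) at an unadjusted p under 0.05. Sarcospan (Sspn) had 33.5, 24.6 and 23.5 CPM in KO 1 to KO 3, against 53.5, 66.3 and 44.1 CPM in HET 1 to HET 3. It lay wholly lower in KO, as Dag1 did, and Sntb1 did so at no more than 1.39 CPM. Wholly lower in KO were 4 of the 22 (18.2%, against 7.42% of all genes). Wholly higher were 2 of the 22, against 8.1% of all genes. These 2 were the kinase gene Pomk and the mannosyltransferase gene Pomt1, which act on the sugar chain of dystroglycan. Pomk had 29.9, 54.8 and 29.5 CPM in KO 1 to KO 3, against 27.5, 26.3 and 26.6 CPM in HET 1 to HET 3. Pomt1 had 16.7, 15.8 and 15.3 CPM in KO 1 to KO 3, against 15.2, 14.2 and 15.1 CPM in HET 1 to HET 3, and the labels nearly met. Log2 fold changes were 0.51 ± 0.29 for Pomk and 0.10 ± 0.20 for Pomt1, at an unadjusted p of 0.132 and 0.628 in edgeR. The median log2 fold change of these 22 was -0.29, against 0.01 over all genes.

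Among 18 tested other integrin ligands, 1 was higher (5.56%, against 4.3% of all genes) and 2 lower in KO (11.1%, against 4.29%) at an unadjusted p under 0.05, with a median log2 fold change of -0.54. Svep1, a ligand of alpha 9 beta 1, had 41.2, 0.568 and 53.5 CPM in KO 1 to KO 3, against 397, 417 and 336 CPM in HET 1 to HET 3. All KO values lay far lower, with a log2 fold change of -3.60 ± 1.31 and an adjusted p of 0.579. Cd47, an integrin-associated protein, had 63.1, 59.2 and 50.3 CPM in KO 1 to KO 3, against 82.7, 83.2 and 79.7 CPM in HET 1 to HET 3. Svep1 and Cd47 were the only 2 of the 18 without overlap (11.1%, against 7.42% of all genes wholly lower in KO). E-cadherin (Cdh1), the ligand of alpha E beta 7, was the higher gene, at 0.227, 14.6 and 1.47 CPM in KO 1 to KO 3, against 0.390, 0.455 and 0.196 CPM in HET 1 to HET 3. Among 26 tested genes of heparan sulfate synthesis, editing and glypicans, 1 was higher in KO (Ndst3; 3.85%, against 4.3% of all genes) and 2 lower (Hpse and Hs6st2; 7.69%, against 4.29%) at an unadjusted p under 0.05, with a median log2 fold change of -0.27. Heparanase (Hpse) had 1.27, 0.827 and 2.34 CPM in KO 1 to KO 3, against 4.29, 9.27 and 5.22 CPM in HET 1 to HET 3. Ndst3, a sulfotransferase of heparan sulfate, had 4.73, 3.62 and 1.59 CPM in KO 1 to KO 3, against 0.177, 0.284 and 0.902 CPM in HET 1 to HET 3. Among 6 other laminin receptors and regulators, Cd44 alone had an unadjusted p under 0.05 (16.7%, against 8.59% of all genes), at 727, 548 and 1079 CPM in KO 1 to KO 3, against 220.5, 366 and 520.1 CPM in HET 1 to HET 3. Of the 26 heparan sulfate genes, 2 lay wholly higher in KO (against 8.1% of all genes), Ndst3 among them. Another 3 lay wholly lower (against 7.42%), Hpse and Hs6st2 among them. Of the 6 laminin receptors and regulators, only Cd44 did not overlap (16.7%, against 15.5% of all genes). Hpse, Ndst3 and Cd44 each had an adjusted p of 0.579 in edgeR. DESeq2 called Hpse (adjusted p of 0.0325) and Ndst3 (0.0378) but not Cd44 (0.286), and it called 1.33% of all genes.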

How the data were processed

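The 6 libraries of cultured fibroblasts were stranded total RNA depleted of ribosomal RNA, per the labels' protocols. Partek, cutadapt 1.2.1 and Bowtie2, with GRCm38 and mm10, appear in the submitters' processing notes, and the sources used here do not give the counting method. The authors deposited estimated counts per gene and RPKM values. The deposited RPKM was found to divide by a fixed multiple of the gene's genomic span (94.5% of 12143 genes within 5%), not by exon length, so levels between genes are CPM per kilobase of merged GENCODE M21 exon. For each library, 30 shifted rows were left out and 7 repeated symbols summed.

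Estimated counts were rounded, filtered with filterByExpr, scaled by TMM and tested two-sided with edgeR 4.0.16 in R 4.3.3, with Benjamini-Hochberg adjustment at 0.05. SE is the absolute log2 fold change over the square root of F. DESeq2 1.42.0 and limma 3.58.1 were alternatives. Replicate numbers follow accession order and pair no libraries, except the title number shared by KO 3 and HET 3. Named genes were, in each class, the 3 with the smallest p, the 3 with the highest mean RPKM and those whose labels did not overlap, with marker-linked members added, and in each pathway list up to 3 by p. The members and lists were chosen with earlier results of these data known. Some genes that the rule names are not reported here.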

Additional observations from a re-analysis of the deposited data

How the results depend on the processing

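Neither a member nor any other gene passed the adjusted threshold under the scaling, filter, limma, left-out-library and blocked alternatives run. DESeq2 called 3 of the 36 members to which it gave a p (8.33%, against 1.33% of all genes). Their log2 fold changes were 4.13 for Itga3, 2.78 for Itga6 and -3.91 for Nid2. The 6 members at an unadjusted p under 0.05 became 2 with limma on log2(RPKM + 1) (4.76%, against 9.18% of all genes), 3 on log2(RPKM + 0.1) (7.14%, against 9.45%), 3 on log2(RPKM + 1) with no filter (6.52%, against 6.67%), and 11 without both KO 3 and HET 3 (25.6%, against 8.67%). With single libraries left out they ranged from 3 without HET 2 (7.14%, against 3.63%) to 7 without KO 1 (16.3%, against 9.41%), and the share of all genes ran up to 12.5% (without KO 3, where 11.6% of members passed). With a replicate block for the title number shared by KO 3 and HET 3 there were 5 such members (11.9%, against 6.0% of all genes) and 0 past adjustment, and the median log2 fold change of -0.08 became -0.48. That median was -0.56 without this pair and ranged from -0.58 (without KO 3) to -0.015 with single libraries left out. The 6 members without overlap ranged from 7 to 14 with single libraries left out, where fewer libraries make overlap rarer. There were 13 without KO 2 (31.0%, against 20.7% of all genes), 14 without KO 3 (33.3%, against 33.5%) and 14 without HET 3 (33.3%, against 24.9%). The others lay below the share of all genes, with 7 without HET 1 (16.7%, against 32.7%), 7 without HET 2 (16.7%, against 19.2%) and 8 without KO 1 (19.0%, against 28.6%). Scaling by library size alone left 4 without overlap (9.52%, against 17.3%). Without HET 2 and KO 3, an alternative chosen after seeing the data because both held leukocyte transcript, 3 members had an unadjusted p under 0.05 (7.14%, against 5.61% of all genes) and 15 did not overlap (35.7%, against 37.7%). Where no construction is named, the cause was not tested. Scaling by library size alone moved the median of all genes to 0.15 and that of the members to 0.04. Of 36 named tested members, 18 kept their sign under all 19 settings, and Lama3 under the 18 that tested it. Precision is limited by 3 libraries a label and by swings of over 10-fold between libraries in 24 members.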

Other observations

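KO 3 and HET 3, whose titles share a number, carry different genotype labels, and their difference has no replicate. On the log2 CPM scale, KO 3 minus HET 3 was -4.93 for Nid2 and -4.24 for Itga8. It was 6.89 for Lama2, 4.72 for Itgb2, 3.80 for Itgb3, 2.52 for Itga6 and 2.45 for Itga5. It was within 0.1 of 0 for Lama4, Sdc1, Itga3, Agrn and Itgb4. Nid2, Itga6 and Dag1 (-0.81) had in this pair the direction they had over all libraries. The labels did not overlap in these genes, so any KO and HET library compared must show that direction. For them the pair is therefore not a separate check.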
